A study of Homo sapiens with 12 samples.

Results

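The ISG15 conjugation system was followed through the polysome-associated mRNA of 3 established human triple-negative breast cancer (TNBC) cell lines. Its 7 members were taken by symbol (ISG15, UBA7, UBE2L6, HERC5, HERC6, USP18 and TRIM25) from 24559 gene symbols in the count table, and all 7 were among the 16538 genes that passed the filter on low counts. The 12 libraries form 6 groups of 2. MDA-MB-231 and SUM159 cells carried a lentiviral shRNA against TRMT112, the knockdown (KD), or its non-silencing control vector (EV), both under puromycin selection. BT549 cells carried a TRMT112 open reading frame plasmid, the overexpression (OE), or the empty plasmid (EV), both under G418. TRMT112 is a small cofactor that several methyltransferases acting on rRNA, tRNA and proteins need for stability. How many shRNA sequences were used, and whether the selected cells were pools or single clones, is not given in the sources used here. Polysome-associated mRNA is the mRNA recovered with several ribosomes bound, from the heavy fractions of a sucrose gradient. Cell line and type of construct go together for BT549, so each effect is read against the EV group of its own line. A difference between the OE effect and a KD effect cannot be told apart from a difference between lines. By the paper's methods the culture medium also differed by line. SUM159 medium held added insulin and hydrocortisone, MDA-MB-231 medium did not, and BT549 cells were grown in RPMI. Line and medium therefore cannot be told apart.

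ISG15 is a ubiquitin-like protein made of a pair of ubiquitin folds, and its gene is among the most strongly induced by type I interferon. It is joined to target proteins by a relay: UBA7 is the activating enzyme (E1), UBE2L6 the conjugating enzyme (E2) and HERC5 the main human ligase (E3), which sits on ribosomes and modifies newly made proteins. HERC6 is the neighbouring paralogue of HERC5, TRIM25 is a ligase for ubiquitin and ISG15 best known for acting with the RNA sensor RIG-I, and USP18 removes ISG15 from its targets and also restrains signalling at the interferon receptor. The genes of this relay are themselves interferon-stimulated, through promoter elements bound by IRF factors.

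Promoter windows are shown because the members share an inducer, and the elements through which it acts can be read as letters. RefSeq windows (GRCh38.p14, 250 bases before to 50 after the start site) were matched for 5 of the 7 members, with none matched for UBA7 and USP18. A core of the interferon-stimulated response element, GAAANNGAAA, and a tighter spacing, GAAANGAAA, were searched on both strands, and matches may overlap. Capitals mark the matches. The windows of ISG15 (chr1:1013247-1013546, plus strand), HERC5 (chr4:88456869-88457168, plus strand), HERC6 (chr4:88378602-88378901, plus strand) and TRIM25 (chr17:56914000-56914299, minus strand) read, 5′ to 3′:
ISG15: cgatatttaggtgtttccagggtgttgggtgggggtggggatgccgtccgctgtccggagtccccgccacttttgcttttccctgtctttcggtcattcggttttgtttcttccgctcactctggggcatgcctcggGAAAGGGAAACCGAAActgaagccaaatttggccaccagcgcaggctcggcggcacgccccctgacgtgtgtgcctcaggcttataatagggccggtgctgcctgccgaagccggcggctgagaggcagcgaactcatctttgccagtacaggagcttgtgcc
HERC5: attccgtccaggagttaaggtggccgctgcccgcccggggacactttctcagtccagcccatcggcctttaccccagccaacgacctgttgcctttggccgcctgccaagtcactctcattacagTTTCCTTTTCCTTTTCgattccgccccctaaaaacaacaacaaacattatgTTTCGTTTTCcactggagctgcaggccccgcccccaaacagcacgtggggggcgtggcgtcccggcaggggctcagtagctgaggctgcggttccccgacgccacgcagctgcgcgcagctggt
HERC6: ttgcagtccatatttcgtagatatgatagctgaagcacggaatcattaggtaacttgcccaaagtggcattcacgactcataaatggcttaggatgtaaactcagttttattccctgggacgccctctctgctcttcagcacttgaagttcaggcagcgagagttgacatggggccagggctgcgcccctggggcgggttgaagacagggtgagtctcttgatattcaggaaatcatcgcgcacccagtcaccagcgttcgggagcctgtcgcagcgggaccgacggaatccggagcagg
TRIM25: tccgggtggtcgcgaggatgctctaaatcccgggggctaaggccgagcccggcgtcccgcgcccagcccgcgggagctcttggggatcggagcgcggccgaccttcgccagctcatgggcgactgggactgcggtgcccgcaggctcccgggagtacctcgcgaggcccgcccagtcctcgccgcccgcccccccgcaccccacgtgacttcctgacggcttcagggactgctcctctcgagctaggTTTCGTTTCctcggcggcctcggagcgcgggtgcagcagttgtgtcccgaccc
The ISG15 window held 2 overlapping matches to GAAANNGAAA, at -113 to -104 and -107 to -98 from the start site. In the HERC5 window 3 matches lay on the opposite strand, of which those at -125 to -116 and -119 to -110 overlap and the last is at -74 to -65. TRIM25 held 1 match to GAAANGAAA on the opposite strand, from -3 to 5. Neither the HERC6 window nor the 2 windows of UBE2L6 held these letters. Among all 35116 windows in the table, 3.57% held GAAANNGAAA and 3.12% held GAAANGAAA. A match describes the sequence and is not evidence of a bound site.

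Each library held between 22954226 and 27434677 expected counts. Genes were called at an adjusted p under 0.05 from edgeR's quasi-likelihood test, and adjusted p-values come from that test over the 16538 genes unless a left-out library, single transcripts or DESeq2 is named. TRMT112 mRNA followed the labels: it fell by 1.23 on the log2 scale in MDA-MB-231 KD and dropped by 0.76 in SUM159 KD, and it was 0.48 higher in BT549 OE, from 128.9 ± 0.34 to 180.0 ± 1.00 CPM (counts scaled to the effective size of each library; SD, n = 2). Levels below are TMM-scaled CPM unless TPM, which corrects for transcript length, is named. Nothing in the labels says that the 2 libraries of a group came from separate cultures, so p-values measure only the spread between these libraries. Polysome counts depend on both the amount of an mRNA and its ribosome loading, and no total RNA libraries were analysed here. In these bulk lysates, fewer cells carrying an mRNA and less of it per cell cannot be told apart. PGR and PTPRC reached at most 9 and 16 counts in any library, and vimentin was high in every group. ERBB2 was 61.7, 112.6 and 140.5 CPM in the EV groups of MDA-MB-231, SUM159 and BT549. KRT8 and KRT18 had at most 16 counts in the 4 BT549 libraries against at least 4617 in each library of the other lines. In the same order of EV groups, EPCAM was 2.97, 0.11 and 0.02 CPM. CDH1 went the other way from the keratins, at 0.08, 0 and 2.39 CPM.

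In BT549, all 7 members were lower in OE than in EV polysomes, while 35.0% of all genes were called lower and 35.6% higher in this comparison (70.6% in either direction). Folds ranged from 15.1 for TRIM25 to 196.7 for USP18, with larger count ratios for HERC5 and HERC6, and only 3.33% of genes were called lower by at least as much as TRIM25, the least lowered member by fitted values. The median fitted log2 fold change of the members was -7.61, or -6.93 with UBA7 set at its bound, against 0.02 for all genes. In MDA-MB-231 KD, 2 members were higher (UBA7 and UBE2L6) and 4 were lower (ISG15, HERC5, USP18 and TRIM25), where 21.2% of all genes were called higher and 16.5% lower (37.7% in either direction). In SUM159 KD, ISG15 was higher and 3 members were lower (UBE2L6, USP18 and TRIM25), where 28.6% of all genes were called higher and 31.4% lower (60.1% in either direction). So 4 of 7 members were called in SUM159, a share close to that of all genes. The KD comparisons and the OE comparison share no libraries.

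**Figure D1:**
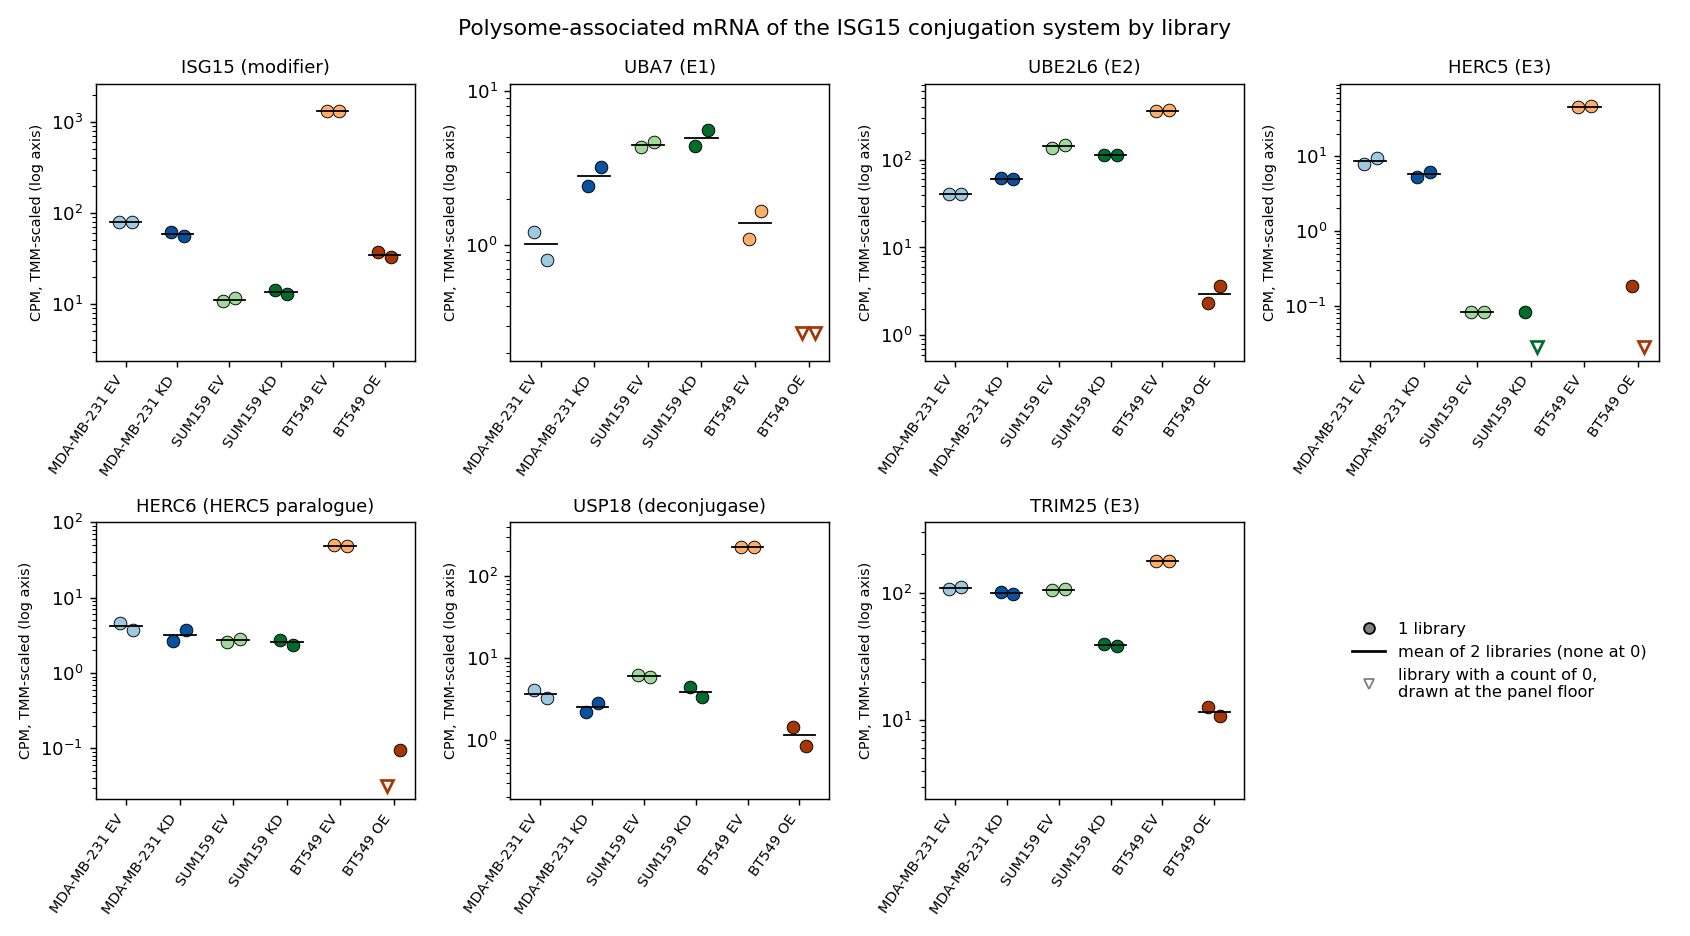
TMM-scaled CPM of each member on a log axis in every library of the 6 groups, with points for libraries, bars for means of 2 libraries, and open triangles at the panel floor for a count of 0. BT549 EV lies above every other library for each member but UBA7, and BT549 OE is the lowest group for UBA7, UBE2L6, HERC6, USP18 and TRIM25.

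ISG15, the modifier itself (chromosome 1, 1001138 to 1014540, plus strand, GRCh38), varied more than 100-fold between groups. Its level was 79.2 and 79.3 CPM in the EV libraries of MDA-MB-231 and 62.1 and 56.1 CPM in KD. In SUM159 it was 10.7 and 11.7 CPM in EV and 14.3 and 12.8 CPM in KD. In BT549 it was 1321 and 1317 CPM in EV and 36.9 and 32.7 CPM in OE. EV and treated libraries did not overlap in any line, but the direction was not the same in each. ISG15 was lower in MDA-MB-231 KD, at -0.42 ± 0.05 (log2 fold change ± SE, adjusted p = 3.85e-07), and higher in SUM159 KD, at 0.27 ± 0.09 (adjusted p = 0.0155). Its main transcript alone, ISG15-203, was 0.15 higher in SUM159 KD and was not called (edgeR on single transcripts, adjusted p = 0.315). That transcript held 94.2% of ISG15 counts in SUM159 EV and 87.2% in KD. The SUM159 call was lost without EV replicate 1 (adjusted p = 0.14) or KD replicate 1 (adjusted p = 0.165). In BT549 OE it was 37.9-fold lower (log2 fold change -5.24, adjusted p = 1.84e-28).

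UBA7, the E1 that activates ISG15 (chromosome 3, 49805209 to 49813953, minus strand), had the lowest mean TPM of the members in the MDA-MB-231 and BT549 groups. It had 31 and 21 counts in the EV libraries of MDA-MB-231 and 62 and 80 in KD, or 1.01 ± 0.30 and 2.83 ± 0.56 CPM (SD, n = 2). The KD libraries were both above the EV libraries, at 1.48 ± 0.30 on the log2 scale (fitted value ± SE, adjusted p = 0.000416), the largest change of any member in this line. In SUM159 it had 102 and 111 counts in EV and 104 and 154 in KD, a difference of 0.15 that did not pass the test (95% interval -0.34 to 0.64, adjusted p = 0.605). In BT549 it had 24 and 36 counts in EV and 0 in both OE libraries. Against a floor of 3 counts per library, UBA7 was at least 9.85-fold lower in OE, a bound that covers counting error only.

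UBE2L6, the E2 (chromosome 11, 57551656 to 57568284, minus strand), moved in all 3 lines and not in one direction. In MDA-MB-231 it was 40.1 and 40.2 CPM in EV and 61.6 and 60.4 CPM in KD, and in SUM159 136.3 and 147.1 CPM in EV and 112.8 and 113.7 CPM in KD. No EV library overlapped a KD library of its line. On the log2 scale the KD effect was 0.60 ± 0.06 (SE, adjusted p = 1.28e-08) in MDA-MB-231 and -0.32 ± 0.05 (adjusted p = 1.56e-06) in SUM159. In BT549 UBE2L6 was 358.5 and 367.0 CPM in EV and 2.32 and 3.65 CPM in OE, 121.7-fold lower (log2 fold change -6.93, adjusted p = 6.92e-27). That placed BT549 EV at the top and BT549 OE at the bottom of the 6 groups for this enzyme.

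HERC5, the main ISG15 ligase (chromosome 4, 88457119 to 88506163, plus strand), was close to undetected in SUM159. It had 198 and 246 counts in the EV libraries of MDA-MB-231 and 134 and 153 in KD, a KD effect of -0.59 ± 0.16 on the log2 scale (fitted value ± SE, adjusted p = 0.00428). The groups did not overlap, but the call was lost without EV replicate 2 (adjusted p = 0.0861) or KD replicate 1 (adjusted p = 0.0693). All 4 SUM159 libraries held at most 2 counts, so no fold is given for that line. In BT549 it had 974 and 1000 counts in EV and 4 and 0 in OE, a ratio of CPM of 485 with a 95% counting interval of 189 to 1783.

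HERC6 (chromosome 4, 88378739 to 88443097, plus strand) starts upstream of HERC5 on the same strand, with a gap of 14021 bases between the genes. Its level was 4.60 and 3.74 CPM in the EV libraries of MDA-MB-231 and 2.63 and 3.75 CPM in KD, and these groups overlapped. The log2 difference of -0.39 (95% interval -0.77 to -0.01) did not pass after adjustment (adjusted p = 0.106). In SUM159 the libraries held 61 and 68 counts in EV and 65 in both KD libraries, a log2 difference of -0.10 (95% interval -0.54 to 0.34, adjusted p = 0.718). In BT549 it had 1093 and 1037 counts in EV and 0 and 2 in OE, a ratio of CPM of 1047 with a 95% counting interval of 290 to 8655. The bounds rest on 2 counts in the OE group and 4 for HERC5, so the size of both folds is poorly fixed while their direction held when either OE library was left out.

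TRIM25, the RIG-I-associated ligase (chromosome 17, 56836387 to 56914080, minus strand), had EV levels within 1.67-fold of each other across the lines and was the member with the largest called change in SUM159. It was 105.4 and 105.6 CPM in the SUM159 EV libraries and 39.3 and 38.1 CPM in KD, 2.73-fold lower (log2 fold change -1.45 ± 0.05 SE, adjusted p = 1.87e-17). In MDA-MB-231 it was 106.9 and 110.3 CPM in EV and 101.3 and 97.2 CPM in KD, a decrease of only 0.13 on the log2 scale (log2 fold change -0.13 ± 0.04 SE, adjusted p = 0.0189). That call was lost without EV replicate 2 (adjusted p = 0.167), without KD replicate 2 (adjusted p = 0.194) and by the DESeq2 Wald test (adjusted p = 0.065), and scaling by library size only gave -0.22. In BT549 it was 175.5 and 177.3 CPM in EV and 12.6 and 10.8 CPM in OE, 15.1-fold lower (log2 fold change -3.92, adjusted p = 1.56e-24). The annotated TRIM25 gene overlaps DGKE on the opposite strand, and the strand setting of the counting is not given in the sources used here. Its main transcript, which held at least 93.6% of TRIM25 counts in every group, lies from 56887909 to 56914049, outside DGKE, which ends at 56869567.

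USP18, the enzyme that removes ISG15 (chromosome 22, 18150118 to 18177397, plus strand), was lower in all 3 treated groups. It had 104 and 86 counts in the EV libraries of MDA-MB-231 and 56 and 70 in KD, a KD effect of -0.56 ± 0.19 on the log2 scale (fitted value ± SE, adjusted p = 0.0223). The MDA-MB-231 call was lost without EV replicate 1 (adjusted p = 0.225) or KD replicate 1 (adjusted p = 0.231). In SUM159 it had 148 and 139 counts in EV and 106 and 92 in KD, a KD effect of -0.65 ± 0.15 on the log2 scale (fitted value ± SE, adjusted p = 0.000874). In BT549 it was 225.0 and 225.1 CPM in EV and 1.44 and 0.85 CPM in OE, 196.7-fold lower (log2 fold change -7.61, adjusted p = 1.99e-24). Reads can be shared with its near-identical copy USP41, which held at most 7 counts in any library.

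**Figure D2:**
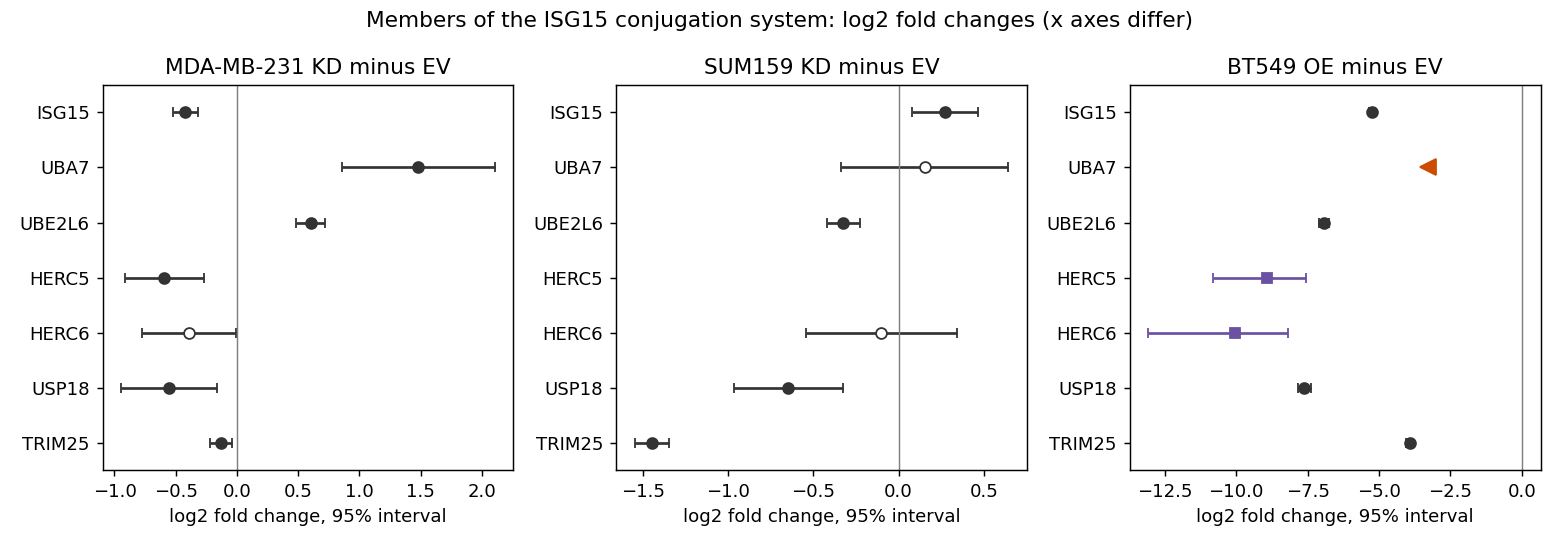
Log2 fold change of each member (x axis, with a different range per panel) in the 3 comparisons. Circles are fitted values with 95% intervals, filled where called and open where not; in BT549 OE minus EV the triangle is the bound for UBA7 and squares are count ratios with counting intervals for HERC5 and HERC6, and HERC5 is left out in SUM159. All 7 members lie left of 0 in BT549, whereas UBA7 and UBE2L6 lie right of 0 in MDA-MB-231.

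A contrast of the same model asked whether KD acted differently in MDA-MB-231 and SUM159. In it 4 of the 7 members were called, where 50.9% of all genes were. The effect in MDA-MB-231 minus that in SUM159 was -0.69 for ISG15 (adjusted p = 6.54e-06), 1.33 for UBA7 (adjusted p = 0.00592), 0.93 for UBE2L6 (adjusted p = 2.05e-10) and 1.32 for TRIM25 (adjusted p = 6.07e-14). For ISG15 and UBE2L6 the KD effect had opposite signs in the lines. USP18 had a difference of 0.09 with a 95% interval of -0.42 to 0.60, and HERC6 one of -0.29 with an interval of -0.87 to 0.30. The OE effect in BT549 was below the KD effect for all 7 members, both against MDA-MB-231 (62.0% of all genes called) and against SUM159 (63.6% of all genes called). The weakest of these calls was HERC5 against SUM159 (adjusted p = 0.00332), which was lost without SUM159 KD replicate 1, where the remaining KD library held 0 counts.

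Among the EV groups the lines differed widely in this system, and the BT549 EV libraries stood highest for 6 of 7 members. ISG15 was 16.6-fold higher in BT549 EV than in MDA-MB-231 EV and 117.9-fold higher than in SUM159 EV. USP18 was 61.0-fold and 37.2-fold higher in BT549 EV than in those groups. TRIM25 was 1.62-fold and 1.67-fold higher, and UBA7 was 3.24-fold lower in BT549 EV than in SUM159 EV (adjusted p = 1.06e-05). After OE, BT549 stood below MDA-MB-231 EV for every member, with ISG15 2.28-fold lower and UBE2L6 13.5-fold lower, although ISG15 in OE was still 3.11-fold above SUM159 EV. Line, culture medium and vector type differ together in these comparisons.

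Across the 15 pairs of groups, 93 of 105 tests of members were called, where 73.9% of the tests of all genes were. For ISG15 and UBE2L6 every pair was called. The order of ISG15 from high to low was BT549 EV, MDA-MB-231 EV, MDA-MB-231 KD, BT549 OE, SUM159 KD and SUM159 EV. UBE2L6 ran from BT549 EV through SUM159 EV, SUM159 KD, MDA-MB-231 KD and MDA-MB-231 EV to BT549 OE. For UBA7 the order was SUM159 KD, SUM159 EV, MDA-MB-231 KD, BT549 EV, MDA-MB-231 EV and BT549 OE, and the pairs within SUM159 and of BT549 EV with MDA-MB-231 EV were not called. In HERC6 the 4 MDA-MB-231 and SUM159 groups formed a run in which no neighbours were called, although MDA-MB-231 EV was called above both SUM159 groups. In TRIM25 SUM159 EV was not told apart from either MDA-MB-231 group. HERC5 in BT549 OE was not told apart from either SUM159 group, and USP18 in SUM159 KD not from MDA-MB-231 EV.

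Per transcript length, the members were far from equal in amount. The summed level of the 7 members was 376.8 TPM in MDA-MB-231 EV, 320.7 TPM in its KD, 282.6 TPM in SUM159 EV and 207.1 TPM in its KD. In BT549 the sum was 4003 TPM in EV and 92.8 TPM in OE. ISG15 made up 67.9% of that sum in MDA-MB-231 EV, 11.1% in SUM159 EV and 81.1% in BT549 EV. In SUM159 EV the conjugating enzyme UBE2L6 led with 207.8 ± 9.70 TPM, followed by TRIM25 with 33.5 ± 0.91 TPM and ISG15 with 31.4 ± 1.60 TPM (SD, n = 2). The TPM ratio of the modifier ISG15 to its activating enzyme UBA7 was 406.4 in MDA-MB-231 EV and 96.5 in KD, 12.2 and 12.6 in SUM159 EV and KD, and 4059 in BT549 EV. The largest ratios are poorly fixed, since UBA7 was only 0.63 ± 0.18 TPM in MDA-MB-231 EV and 0.80 ± 0.40 TPM in BT549 EV (SD, n = 2). The TPM ratio of ISG15 to its removing enzyme USP18 was 60.3, 5.26 and 16.8 in the EV groups of MDA-MB-231, SUM159 and BT549.

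**Figure D3:**
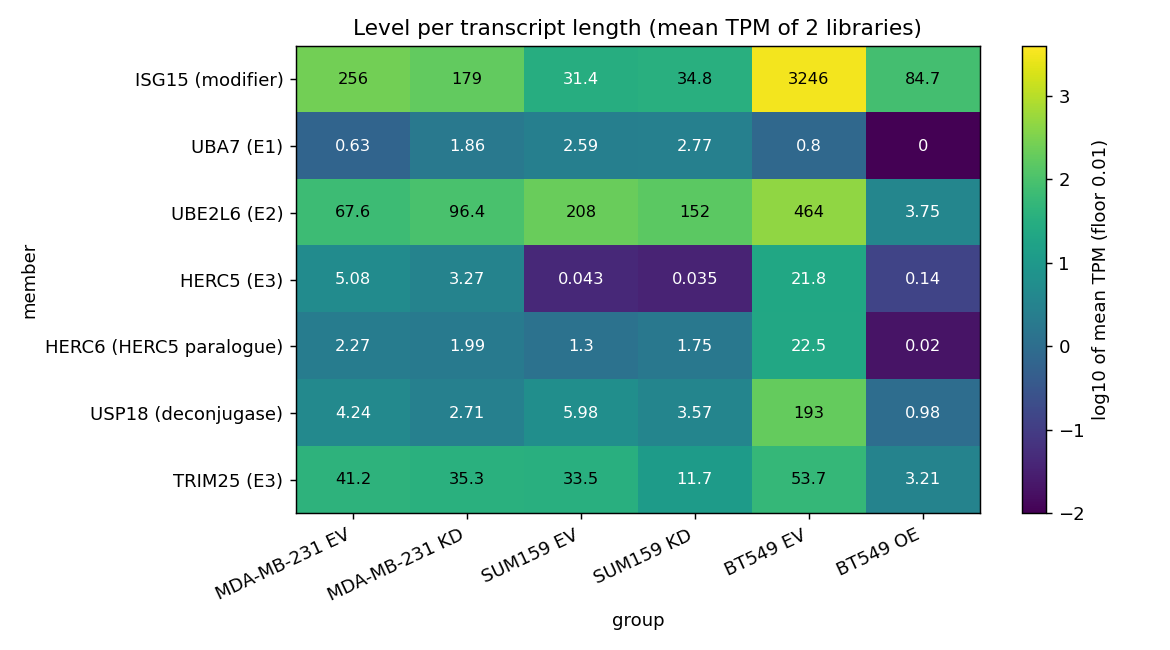
Mean TPM of 2 libraries for each member (rows) in each group (columns), with colour on a log10 scale. ISG15 leads in the MDA-MB-231 and BT549 groups and UBE2L6 in the SUM159 groups, and the BT549 OE column holds the lowest value of UBA7, UBE2L6, HERC6, USP18 and TRIM25.

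The table is per transcript, and 16 transcripts of the members passed the filter. In MDA-MB-231 KD 1 was called higher (UBE2L6-201) and 1 lower (ISG15-203), where 3.5% of all transcripts were called. In SUM159 KD 2 were called lower (UBE2L6-201 and TRIM25-201) and none higher, where 12.5% of all transcripts were called. In BT549 OE 13 were called lower, from all 7 members, and none higher, where 21.4% of all transcripts were called. The main transcript held at least 87.2% of ISG15 counts and at least 91.7% of UBA7 counts in every group with any. HERC5 in SUM159 and HERC5 and HERC6 in BT549 OE had at most 4 counts per group, too few to give shares by transcript. USP18 was spread more widely than ISG15 and UBA7. USP18-201 held 80.9% of its summed counts in BT549 EV and between 54.5% and 66.7% in the other groups, and USP18-202 held most of the rest. By library the USP18-201 share in BT549 OE was 73.3% and 38.9%, on 22 and 7 counts. Outside BT549 OE, HERC6-201 held between 68.12% (MDA-MB-231 KD) and 89.15% (SUM159 KD) of HERC6 counts. These shares are estimates in which reads shared between transcripts were divided.

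The interferon pathway that induces the members was described by a list of ligands, receptors and signalling genes, of which 13 were tested. Of all genes, 35.0% were lower and 35.6% higher in BT549 OE, 31.4% and 28.6% in SUM159 KD, and 16.5% and 21.2% in MDA-MB-231 KD. In BT549 OE 9 of the 13 were lower and 2 higher, with a median log2 fold change of -0.87. The transcription factor gene IRF7 went from 100.3 to 5.995 CPM (log2 fold change -4.06) and IRF1 from 165 to 20.5 CPM (-3.01). The interferon gene IFNB1 had 8 and 16 counts in the BT549 EV libraries and 0 in both OE libraries, and the table marks it as missing in the other lines. In SUM159 KD 8 of the 13 were lower and none was higher, among them IRF1 (-2.10) and SOCS3 (-1.31), an inhibitor of cytokine signalling. In MDA-MB-231 KD 4 were higher and 2 lower, with IRF1 at 0.45 and the receptor chain IFNAR1 at -0.29; with library size only as the scaling, 1 was higher in this line.

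Proteins described as carrying ISG15 gave a list of 23 genes, 3 of which are also in the interferon list. The share of all genes called in either direction was 70.6% in BT549 OE, 60.1% in SUM159 KD and 37.7% in MDA-MB-231 KD. In BT549 OE 12 were lower and 5 higher, with a median log2 fold change of -0.22. The antiviral GTPase MX1 (-8.34), IFIT1 (-7.25) and the RNA editing enzyme ADAR (-2.51) had the smallest p-values, and these are interferon-stimulated genes themselves. In SUM159 KD 12 were lower and 9 higher, among them ADAR (-0.98). In MDA-MB-231 KD 11 were higher and 6 lower, among them CCND1 (0.53) and MX1 (1.31). With library size only, 5 were higher in this line. MX1 was 1.02 CPM in MDA-MB-231 EV and 2.56 CPM in KD. Of 7 other enzymes reported to join or remove ISG15, 2 were higher and 2 lower in BT549 OE, 1 and 5 in SUM159 KD, and 3 and 1 in MDA-MB-231 KD.

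Other conjugation systems were set beside that of ISG15. Their counts are read against 70.6% of all genes called in BT549 OE, 37.7% in MDA-MB-231 KD and 60.1% in SUM159 KD. Of 13 ubiquitin counterparts and paralogues, 5 were higher and 7 lower in BT549 OE, including the ligase TRIM21 (-3.08) and the ubiquitin gene RPS27A (0.43). The 16 SUMO genes split evenly in BT549 OE, with 6 higher and 6 lower, and their median log2 fold change was -0.07. Of 10 NEDD8 genes, 7 were higher and 1 lower in BT549 OE, with a median of 0.40, led by NAE1 (1.19), the regulatory part of the NEDD8 E1. The UFM1 list had 3 higher and 2 lower of 8, and of 2 FAT10 genes UBE2Z was lower (-1.12). Over these 5 lists the median log2 fold change in BT549 OE lay between -0.65 and 0.40. In MDA-MB-231 KD the counts higher and lower were 4 and 6 for the ubiquitin list, 3 and 4 for SUMO, 1 and 4 for NEDD8, 1 and 4 for UFM1, and 1 and 1 for FAT10. In SUM159 KD they were 2 and 5, 5 and 7, 4 and 1, 0 and 4, and 0 and 2 in the same order.

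**Figure D4:**
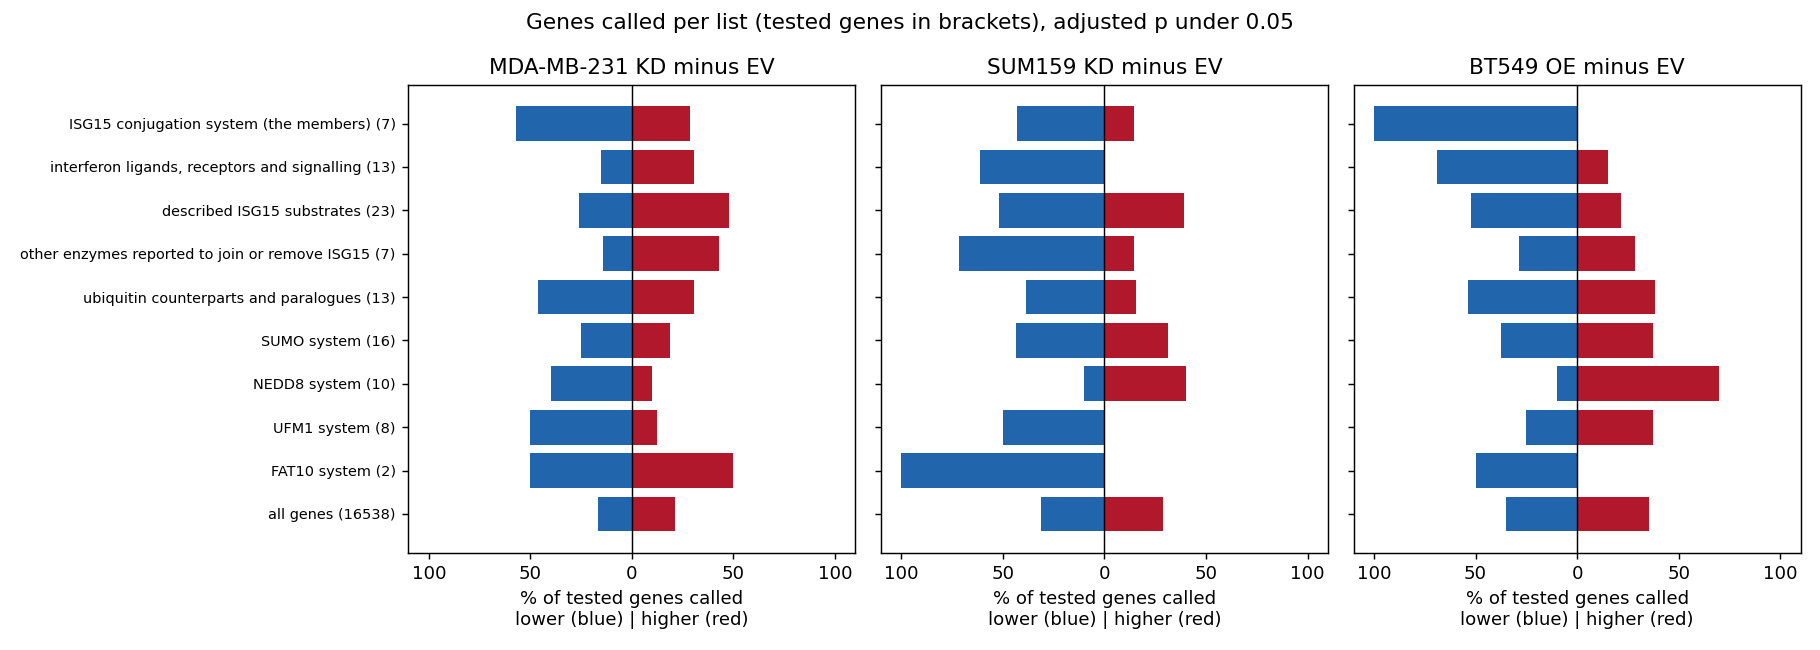
Percent of the tested genes of each list called higher (red, right) or lower (blue, left) in the 3 comparisons, with the number tested in brackets and all genes in the last row. In BT549 all 7 members lie on the lower side, whereas the SUMO list is split evenly.

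Of 6 tested markers of other cell types, 4 were called higher and 1 lower in BT549 OE, where 70.6% of all genes were called. The 4 higher markers stayed at low levels. CD14 went from 0.55 to 3.70 CPM, PECAM1 from 0.02 to 0.19 CPM, and CDH5 and PLIN1 from 0 to 0.12 CPM. The counts higher and lower were 2 and 0 in MDA-MB-231 KD and 1 and 2 in SUM159 KD (37.7% and 60.1% of all genes called). Of 13 such markers 7 were in the table, and their summed level was 174.4 to 179.7 CPM in BT549 EV and 11.1 to 11.3 CPM in OE, almost all of it CD68, a lysosomal protein gene that fell from 176 to 6.88 CPM. PTPRC, which marks leukocytes, had at most 16 counts in any library. VIM went from 1983 to 717 CPM and ERBB2 from 140 to 71.4 CPM in the same comparison, and TRMT112 rose by 0.48 on the log2 scale. The part of these differences in the result for the members was not tested.

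By the rule fixed for it, the 5 genes whose centred log2 CPM ran closest to ISG15 over the 12 libraries, among 12583 genes, were RGS4, IRF7, KIF26B, OXTR and EPSTI1. Their root mean square difference from ISG15 was 0.53, 0.61, 0.61, 0.66 and 0.82 on the log2 scale. All 5 were highest in BT549 EV, as ISG15 was, which follows largely from choosing them by likeness to ISG15 in these libraries. RGS4 was 23.6 CPM there and at most 1.09 CPM in the other groups, and KIF26B 9.95 CPM and at most 1.51 CPM. A prior count of 2 was added before the log, which damps differences between such low values. Of the members, USP18 was nearest, at 1.53 with 194 genes closer, and UBA7 farthest, at 3.29 with 11417 genes closer. The 12 libraries come from 6 groups in 3 cell lines, so they are not independent points.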

How the data were processed

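The members and gene lists were chosen with earlier results of these data known. Per the labels and the paper's methods, Trimmomatic, HISAT2 (genome GRCh38) and SAMtools (removal of duplicates) were run before DESeq2 in Partek. The deposited values are expected counts for each Ensembl transcript and are not normalized. The counting tool, its annotation and its strand setting are not given in the sources used here, and the library kit is named differently in the labels (poly(A) selection) and the methods (rRNA depletion), so its effect on the counts is not known. In 5.08% of the transcripts the 8 MDA-MB-231 and SUM159 columns hold a missing mark, which was taken as 0. Before rounding, no transcript has a value of exactly 0 in all 4 BT549 libraries, although some values there are small enough to round to 0.

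Transcripts were matched to GENCODE 44 (79.6% of 201932), summed to gene symbols and rounded. Genes kept by filterByExpr were TMM-scaled and tested with edgeR 4.0.16 (quasi-likelihood, R 4.3.3) in 1 model of 6 group means over 12 libraries, with p-values adjusted by Benjamini-Hochberg. Standard errors are the log2 fold change over the root of F. Differences between KD and OE effects and the 15 pairs of groups are contrasts of that model, and the member transcripts were tested in the same way. Fits were tested on simulated counts in which few genes were changed, as many up as down, at a single dispersion. That setting does not cover changes as wide as those called here. TPM was computed here from transcript counts and lengths. Alternatives were RLE factors, library size only, each line alone, a replicate block, genes with a mean of 50 counts or more, all genes unfiltered, DESeq2 1.42.0, marked transcripts left out, USP18 with USP41, and leaving out each library. Named genes were all members, TRMT112, the 3 list genes of smallest p per comparison, and the 5 genes nearest to ISG15. Some of the list genes this gives are not reported here. Neighbours in the genome, CD68, VIM, ERBB2, PTPRC, PGR, EPCAM, CDH1, KRT8 and KRT18 come from marker lists or position. The interferon gene IFNB1 was named outside these rules. Replicates differed by more than sampling noise in all 6 groups. Depth was 22954226 to 27434677 counts per library, and floors and counting intervals cover counting error only, since reads carry no molecular identifiers.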

Additional observations from a re-analysis of the deposited data

Results flagged for a closer look

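The KD effect differed between MDA-MB-231 and SUM159 for 4 of the 7 members, by a test of the difference itself (edgeR's quasi-likelihood test, 2 libraries per group). In that contrast 50.9% of all genes were called. The effect in MDA-MB-231 minus that in SUM159 was -0.69 for ISG15, 1.33 for UBA7, 0.93 for UBE2L6 and 1.32 for TRIM25 on the log2 scale. ISG15 was lower in both MDA-MB-231 KD libraries than in both EV libraries and higher in both SUM159 KD libraries. For its main transcript alone the SUM159 rise was not called (0.15, edgeR on single transcripts, adjusted p = 0.315). UBE2L6 moved in the opposite direction to ISG15 in each line. These 4 calls held with each of the 12 libraries left out in turn, with values between -0.79 and -0.61 for ISG15, 1.06 and 1.66 for UBA7, 0.87 and 0.98 for UBE2L6, and 1.29 and 1.35 for TRIM25. The depth of the knockdown also differed, by -0.47 on the log2 scale for TRMT112 (adjusted p = 1.83e-07), and its part in these differences was not tested.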

How the results depend on the processing

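In BT549 OE all 7 members were lower under every alternative run. The number lower in MDA-MB-231 KD was 4, and between 2 and 4 when a library was left out; it was 2 without EV replicate 2 and 2 without KD replicate 1. The number higher in SUM159 KD was 1, and between 0 and 1 when a library was left out, with 0 without EV replicate 1 or KD replicate 1. Of the log2 fold changes of single members with a library left out, 494 kept their side of the threshold, 9 were no longer called and 1 (HERC6 in MDA-MB-231 without KD replicate 2, -0.66, adjusted p = 0.0278) became called. Under the other alternatives 354 kept their side, TRIM25 in MDA-MB-231 was lost with DESeq2, and HERC6 in MDA-MB-231 was called with library size only (-0.48, adjusted p = 0.0437), which made 5 lower. The cause was not tested. Where a group keeps 1 library, that library is assumed to vary like the others. The fitted HERC5 value in BT549 OE was -13.10 without OE replicate 1, which leaves 0 counts, and -7.90 without OE replicate 2. For HERC6 it was -8.94 and -13.21. Library size only moved the calls of all genes in MDA-MB-231 from 3505 higher and 2735 lower to 2363 higher and 4082 lower. With the replicate block no member call changed (ISG15 -0.42 in MDA-MB-231, 0.27 in SUM159 and -5.24 in BT549). Same-numbered libraries did not deviate together over all tested genes (r between -0.03 and 0.04). That shows no large shared shift, but it cannot tell whether same-numbered libraries were handled together. Depth limits HERC5 in SUM159 and UBA7, HERC5 and HERC6 in BT549 OE, which had at most 4 counts in a library.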

Other observations

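The genes on either side of the members did not share one pattern in BT549 OE. Beside ISG15, HES4 was higher (log2 fold change 0.50, edgeR adjusted p = 1.01e-06) and AGRN lower (-0.59). Beside the HERC6 and HERC5 pair, PPM1K, a mitochondrial phosphatase gene 93969 bases away, went from 12.96 CPM to 0 in both OE libraries, and PYURF was slightly higher (0.28). SERPING1, the C1 inhibitor gene 29102 bases from UBE2L6, went from 18.0 to 0.12 CPM, while TIMM10 on the other side was higher (0.82). DGKE, which overlaps the annotated TRIM25 gene on the opposite strand, went from 6.35 to 1.43 CPM, and COIL on the other side was lower (-0.63). Beside UBA7, INKA1 (-0.78) and TRAIP (-0.43) were lower. Beside USP18, TUBA8, 3434 bases away, was lower (-1.55, edgeR adjusted p = 0.0476, from 0.97 to 0.33 CPM), and TMEM191B, 350404 bases away, was not called (adjusted p = 0.411). These genes were chosen by position and after earlier results were known.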
